A study of Mus musculus with 9 samples.

Results

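The genes described here were *Fos*, *Junb*, *Nr4a1*, *Klf6* and *Dusp1*, 5 of the 689 genes of the deposited RNA-seq table. They were chosen by name, with earlier results of these libraries known. They could be chosen only because the table itself holds genes selected on the RPKM of these same libraries, by the authors' model of age and microglial state. Their group differences are therefore given as a description. Each library was made from 1 frozen hemibrain of a male C57BL/6J mouse. The 3 young control mice were 5 months old by the labels, came from JAX and ate control diet for 6 weeks. The 3 aged control mice were 24 months old, came from NIA and ate the same control diet for 6 weeks. The 3 aged repopulated mice, also 24 months old and from NIA, ate diet with PLX5622 for 2 weeks and control diet for 4 weeks. PLX5622 blocks the receptor CSF1R that microglia need to survive, and new microglia fill the brain after its withdrawal. Age and supplier cannot be told apart in the comparison with young mice. By the paper, the brains for RNA-seq were taken after behavioral testing, and mice were killed by carbon dioxide inhalation. Its methods also state that all mice got BrdU injections on the days just before. The paper does not give the time of day or the order in which the mice were killed. The part of handling, testing and killing in the levels described here was not tested. Libraries are named here by group and by a number that only identifies the mouse.

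Immediate early genes are transcribed within minutes of a stimulus without the need for new protein, and their short-lived RNA then declines. In the brain, neuronal activity, growth factors and stress induce them through calcium and MAP kinase signalling, which acts on the factors CREB and SRF already bound at their promoters. *Fos* and *Junb* encode basic leucine zipper proteins that pair to form the transcription factor AP-1. *Nr4a1* encodes an orphan nuclear receptor, *Klf6* a zinc finger transcription factor, and *Dusp1* a phosphatase that switches off MAP kinases and thereby limits the signal that induced it.

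The 5 promoters are shown because CREB binds the cAMP response element (CRE), whose core is TGACG, and because 4 of the 5 genes moved together from library to library. Each sequence is the 250 bases before the RefSeq start of the gene (GRCm38.p6), written 5′ to 3′ on the strand of the gene. Capitals mark the CRE core TGACG on either strand (CGTCA on the other) and the TATA box TATAAA.
Fos (chr12:85473640-85473889, plus strand): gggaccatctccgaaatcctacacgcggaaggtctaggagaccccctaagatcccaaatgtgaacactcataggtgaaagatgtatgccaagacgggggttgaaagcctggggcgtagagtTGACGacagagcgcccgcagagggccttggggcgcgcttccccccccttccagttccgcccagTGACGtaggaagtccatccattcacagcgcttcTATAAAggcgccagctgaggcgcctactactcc
Junb (chr8:84978749-84978998, minus strand): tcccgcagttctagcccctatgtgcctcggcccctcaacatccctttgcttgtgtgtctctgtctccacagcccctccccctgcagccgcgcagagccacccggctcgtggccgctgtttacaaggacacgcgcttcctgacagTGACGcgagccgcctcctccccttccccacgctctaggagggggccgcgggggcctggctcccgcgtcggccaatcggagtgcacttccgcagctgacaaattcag
Nr4a1 (chr15:101266596-101266845, plus strand): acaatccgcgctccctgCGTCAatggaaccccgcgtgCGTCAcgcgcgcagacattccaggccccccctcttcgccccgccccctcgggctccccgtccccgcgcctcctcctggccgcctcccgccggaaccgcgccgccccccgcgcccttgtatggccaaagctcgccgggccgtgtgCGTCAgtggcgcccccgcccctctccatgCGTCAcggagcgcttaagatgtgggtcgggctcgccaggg
Klf6 (chr13:5861239-5861488, plus strand): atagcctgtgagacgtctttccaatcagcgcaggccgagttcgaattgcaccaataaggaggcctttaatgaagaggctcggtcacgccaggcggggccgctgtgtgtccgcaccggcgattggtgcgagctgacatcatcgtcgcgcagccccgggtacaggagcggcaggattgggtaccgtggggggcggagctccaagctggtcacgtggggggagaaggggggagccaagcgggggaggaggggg
Dusp1 (chr17:26508473-26508722, minus strand): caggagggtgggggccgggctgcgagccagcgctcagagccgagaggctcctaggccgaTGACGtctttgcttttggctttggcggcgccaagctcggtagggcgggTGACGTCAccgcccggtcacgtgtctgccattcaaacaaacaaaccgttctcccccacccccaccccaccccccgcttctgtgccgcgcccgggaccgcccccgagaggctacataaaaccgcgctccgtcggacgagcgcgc
Read on both strands, the CRE core occurred 4 times before *Nr4a1*, 3 times before *Dusp1*, 2 times before *Fos*, 1 time before *Junb* and 0 times before *Klf6*. In *Dusp1*, the matches that begin 143 and 140 bases before the start overlap as the palindromic full element TGACGTCA, which none of the other 4 sequences held. Of 32851 RefSeq promoters of this length, 17.8% held the core at least 1 time, 3.9% at least 2 times, 0.688% at least 3 times and 0.137% at least 4 times, and 1.55% held the full element. Among 753 promoters of genes in the table, 29.6% held the core and 2.66% the full element. The shares for repeated cores were taken over all promoters only, where the core is less frequent than in the table. The matches before *Fos* began 129 and 66 bases upstream, the latter close to a TATA box that began 33 bases upstream. Read on either strand, TATAAA occurred in 12.4% of all these promoters, in 7.57% of those of genes in the table and in none of the other 4 windows. The RefSeq starts used here are not the outermost GENCODE ones for every gene. The windows of *Nr4a1* and *Dusp1* lie inside the loci that GENCODE annotates, downstream of their outermost starts, and that of *Junb* ends upstream of the GENCODE start. *Klf6* held the CCAAT box (CCAAT, either strand) 4 times, and 33.8% of all promoters held it at least 1 time. The CArG box, which SRF binds, was in none of the 5 windows and in 1.47% of all. A match is a run of letters, and these windows leave out more distant elements. Whether CREB has a part in the levels of these genes, or in their moving together, was not tested.

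On GRCm38, which is also called mm10, GENCODE M21 places *Fos* on chromosome 12 from 85473890 to 85477273 on the plus strand. *Junb*, a gene of 1 exon, lies on chromosome 8 from 84974484 to 84978718 on the minus strand, and *Nr4a1* on chromosome 15 from 101254269 to 101274795 on the plus strand. *Klf6* lies on chromosome 13 from 5861482 to 5870394 on the plus strand, and *Dusp1* on chromosome 17 from 26505590 to 26562128 on the minus strand. The longest basic coding transcript was 1809 nucleotides for *Junb*, 1990 for *Dusp1*, 2108 for *Fos*, 2553 for *Nr4a1* and 4225 for *Klf6*, against a median of 3178.5 in the table. The annotated *Junb* overlaps *Prdx2* on the opposite strand, and the long annotated *Dusp1* locus overlaps *Ergic1* and the pseudogene *Gm8225* on the opposite strand and a pseudogene and an intronic RNA on its own. Whether reads were counted by strand is not given in the sources used here, so reads of such overlaps cannot be told apart.

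Levels are given in RPKM, read counts that the authors divided by transcript length and by total mapped reads. The lowest RPKM of any gene was 3.46 and the median gene mean was 19.8. RPKM summed over the table was between 22242 and 24853 per library. With no counts in the table, the read depth is unknown, and the precision of each value rests on the spread between 3 mice of a group. Differences are on the log2(RPKM + 1) scale, from a limma model of all 9 libraries together, and understate the change of low genes. A gene is called where its Benjamini-Hochberg adjusted p over the 689 genes is under 0.05. In bulk tissue, fewer cells of a type and less RNA per cell cannot be told apart.

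**Figure D1:**
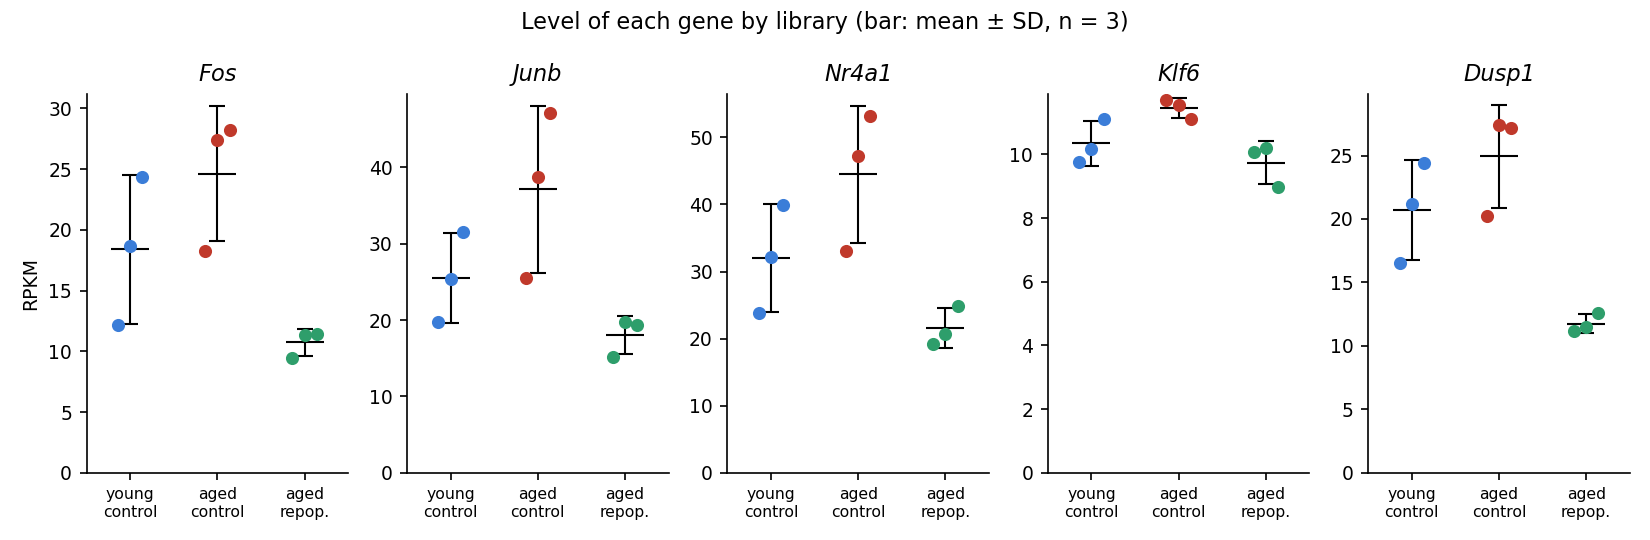
RPKM of the 5 genes in each library, with the mean and SD of each group of 3 mice as bars and a separate axis from 0 for each gene. The aged repopulated libraries lie below the aged control libraries for every gene, and the values of *Klf6* run only from 8.98 to 11.7 RPKM over all libraries.

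Between aged control and aged repopulated brains, *Fos*, *Junb*, *Nr4a1* and *Dusp1* were each about equally lower after repopulation, at a ratio of aged control to aged repopulated means between 2.05 and 2.3. *Klf6* was lower by much less, at a ratio of 1.18. For all 5 genes every aged repopulated library was below every aged control library, which was the case for 22.2% of the table. All 5 were called lower, against 5.81% of the table. Over all genes 20 were called higher and 40 lower, but 111 and 22 after centring every library by its median gene, 52 and 21 with quantile normalization and 7 and 9 of 686 with a correction for transcript length. On untransformed RPKM 1 of the 5 was called lower, beside 15 of all 689 genes. With only the groups compared 2 were, beside 5, and without variance moderation 0 were, beside 3. The table was selected on this contrast, so nothing is read from these shares and counts.

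Among the AP-1 genes, *Fos* was 18.2, 27.4 and 28.2 RPKM in aged controls 1 to 3 and 9.46, 11.3 and 11.4 RPKM in aged repopulated mice 1 to 3. The lowest aged control library was well above the highest repopulated one. The mean was 24.6 ± 5.55 RPKM (SD, n = 3) against 10.7 ± 1.1 (SD, n = 3), a log2 difference of -1.11 with a standard error of 0.23. *Junb* was 25.5, 38.8 and 47.1 RPKM in the aged controls and 15.2, 19.7 and 19.3 RPKM in the aged repopulated mice. Here the aged controls were spread most widely, and the lowest of them still lay above all aged repopulated libraries. The means were 37.1 ± 10.9 and 18.1 ± 2.48 RPKM (SD, n = 3 each), a log2 difference of -0.96 with a standard error of 0.22.

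*Nr4a1* was 33.1, 47.2 and 53.1 RPKM in the aged controls and 19.2, 20.6 and 24.8 RPKM in the aged repopulated mice. The lowest library among the aged controls was again number 1. The log2 difference was -0.99 with a standard error of 0.20, from 44.5 ± 10.3 to 21.6 ± 2.93 RPKM (SD, n = 3 each). *Klf6* was 11.7, 11.5 and 11.1 RPKM in the aged controls and 10.1, 10.2 and 8.98 RPKM in the aged repopulated mice. The groups stayed apart, but by less than 1 RPKM, and aged control 1 was here the highest of its group. The log2 difference was -0.21 with a standard error of 0.06. The phosphatase gene *Dusp1* was 20.3, 27.4 and 27.2 RPKM in the aged controls and 11.2, 11.5 and 12.6 RPKM in the aged repopulated mice. The repopulated values were close together and the gap to the aged controls was wide. The log2 difference was -1.01 with a standard error of 0.14, from 24.9 ± 4.05 to 11.7 ± 0.758 RPKM (SD, n = 3 each).

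In the order of log2 differences over the table, *Fos*, *Dusp1*, *Nr4a1* and *Junb* took places 2 to 5 from the most negative and *Klf6* place 29. Only *Btg2*, which encodes an antiproliferative protein induced in the same early wave, was lower.

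As a description of these selected values, *Dusp1* was called lower in all 9 fits that left out 1 library. *Fos* and *Nr4a1* were called in 3 of these, *Junb* in 2 and *Klf6* in 0. The number of the 5 genes called was 1 without young control 2, aged control 2, aged control 3, aged repopulated 1, aged repopulated 2 or aged repopulated 3, 3 without young control 1, and 4 without young control 3 or aged control 1. Of all 689 genes, between 2 and 4 were called lower without young control 2, aged control 2, aged control 3 or aged repopulated 3, between 11 and 19 without young control 1, young control 3, aged repopulated 1 or aged repopulated 2, and 97 without aged control 1. Over these 9 fits the log2 difference stayed between -1.30 and -1.0 for *Fos*, between -1.21 and -0.77 for *Junb*, between -1.19 and -0.85 for *Nr4a1*, between -0.24 and -0.16 for *Klf6* and between -1.15 and -0.94 for *Dusp1*.

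**Figure D2:**
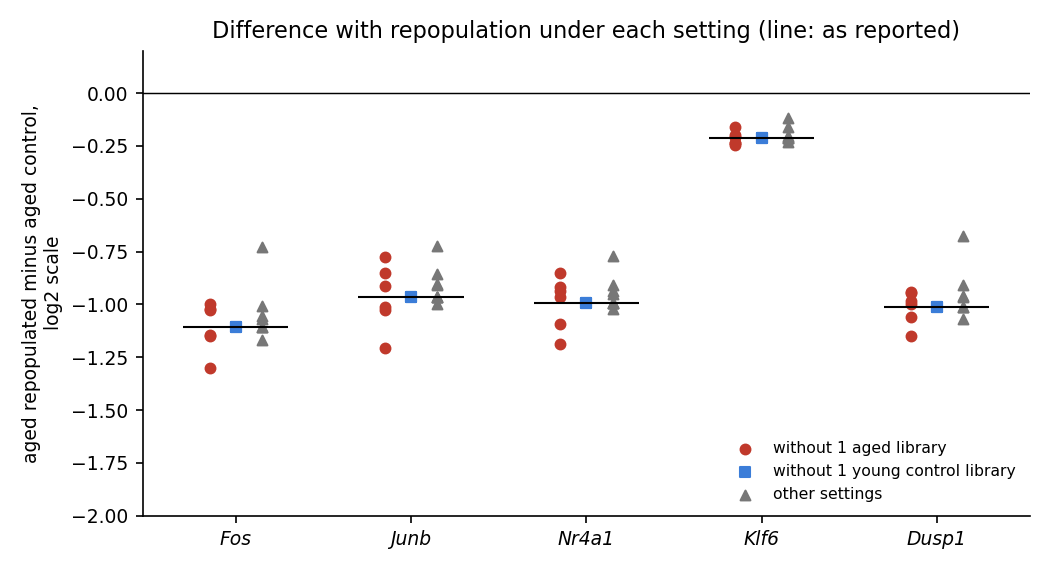
Log2 difference of aged repopulated against aged control brains for each gene, with a line for the reported value and points for fits without 1 aged library, without 1 young control library and under the other settings on a log2 scale. All points lie below 0, and those of *Klf6* are the closest to it, from -0.24 to -0.12.

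The median gene of the table was lower after repopulation by only 0.05 on the log2 scale. With each library centred on its median, the difference was -1.05 for *Fos*, -0.91 for *Junb*, -0.94 for *Nr4a1*, -0.16 for *Klf6* and -0.96 for *Dusp1*. After a correction for transcript length in each library it was -1.01, -0.85, -0.91, -0.20 and -0.91 in the same order. All 5 genes thus stayed lower after repopulation. The centred fit called 4 of them lower, beside 22 of all 689 genes, and the length-corrected fit 3, beside 9 of 686.

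Between young control and aged control brains, the ranges of the groups overlapped for all 5 genes, while for 50.7% of the table all aged controls were above all young controls. The mean was higher in aged controls for every one of the 5 genes, and the log2 difference was positive for 67.8% of the table. The table was selected on age as well. None was called (limma), whereas 46.3% of the table was called higher, and 3 of the 5 had an unadjusted p under 0.05, as had 479 of the 689 genes. The share of the table called higher depended on the scaling, with 319 genes higher and 114 lower as fitted, 78 and 215 with centring, 88 and 189 with quantile normalization and 63 and 95 of 686 with the length correction. *Fos* was 12.1, 18.7 and 24.4 RPKM in young controls 1 to 3, and its largest young value was above the smallest aged control value. Its log2 difference with age was 0.43 (SE 0.23, adjusted p of 0.115 by limma). *Junb* was 19.7, 25.3 and 31.5 RPKM in the young controls, and its highest young library too exceeded aged control 1. The log2 difference was 0.50 (SE 0.22, adjusted p of 0.0653 by limma).

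*Nr4a1* was 23.8, 32.1 and 39.9 RPKM in the young controls, which left a log2 difference of 0.47 (SE 0.20, adjusted p of 0.063 by limma). *Klf6* was 9.75, 10.2 and 11.1 RPKM in the young controls, and the log2 difference was 0.14 (SE 0.06, adjusted p of 0.0556 by limma). Its ranges overlapped only slightly, the highest young library lying just above the lowest aged control library. *Dusp1* was 16.6, 21.2 and 24.4 RPKM in the young controls, for a log2 difference of 0.26 (SE 0.14, adjusted p of 0.122 by limma). For *Dusp1* young controls 2 and 3 were above aged control 1.

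The age differences moved with single libraries. Without young control 1 the log2 difference was 0.17 for *Fos*, 0.34 for *Junb*, 0.28 for *Nr4a1*, 0.10 for *Klf6* and 0.12 for *Dusp1*, and none was called, beside 223 higher of all 689 genes. Without aged control 3 it was 0.31 for *Junb*, and again none of the 5 was called, beside 264 higher of all genes. Without aged control 1, *Fos*, *Junb*, *Nr4a1* and *Dusp1* were called higher with age, at log2 differences of 0.62, 0.75, 0.66 and 0.40, beside 325 of all 689 genes. Without young control 3, *Fos*, *Junb*, *Nr4a1* and *Klf6* were called higher, beside 215 of all genes. Without aged repopulated 3, which enters this comparison only through the estimate of the spread, *Klf6* alone of the 5 was called, beside 313 higher of all genes. The median gene of the table was higher with age by 0.10, and centring each library on its median left differences of 0.32 for *Fos*, 0.40 for *Junb*, 0.36 for *Nr4a1*, 0.03 for *Klf6* and 0.15 for *Dusp1*. None of the 5 was called in that fit, beside 78 higher and 215 lower of all 689 genes.

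**Figure D3:**
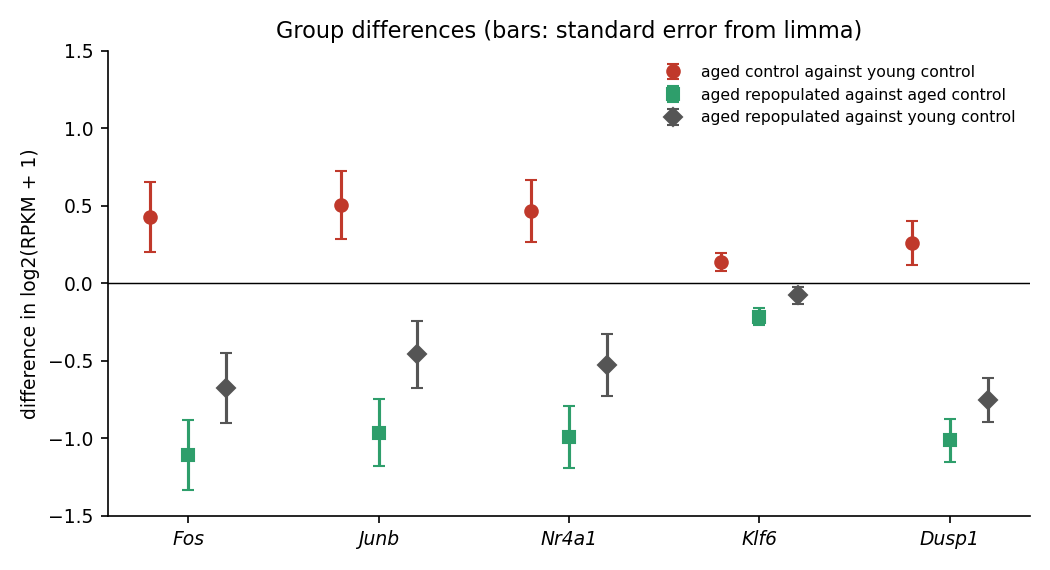
Differences in log2(RPKM + 1) of the 5 genes in the 3 group comparisons, with standard errors from limma. The age differences lie between 0.14 and 0.50, those of aged repopulated against aged control between -1.11 and -0.21, and those of aged repopulated against young control between -0.75 and -0.08. The comparisons share libraries.

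Between young control and aged repopulated brains, the means of all 5 genes were lower in the aged repopulated mice. For *Fos*, *Junb* and *Dusp1* every aged repopulated library was below every young control library, which held for 11.2% of the table. The table was selected on age and microglial state in these libraries, so the calls here are given as a description. *Dusp1* was called lower and the other 4 genes were not, and 0.726% of the table was called lower. These were 5 genes lower against 29 higher, but 38 lower and 23 higher with centring, 25 and 18 with quantile normalization and 45 and 26 of 686 with the length correction. *Dusp1* was the 1 member called in each of these fits. It was not called on untransformed RPKM, the scale of the study, or without variance moderation, where 1 gene of the table was called lower in each. The mean of *Dusp1* was 20.7 ± 3.95 RPKM in the young controls (SD, n = 3) and 11.7 ± 0.758 in the aged repopulated mice (SD, n = 3), a log2 difference of -0.75 (SE 0.14, adjusted p of 0.0181 by limma). *Fos* had a log2 difference of -0.68 (SE 0.23, adjusted p of 0.0908 by limma). Its separation was narrow, with 12.1 RPKM in the lowest young library and 11.4 RPKM in the highest aged repopulated library.

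*Junb* differed by -0.46 (SE 0.22, adjusted p of 0.181 by limma), and its groups were separated by less than 0.1 RPKM. *Nr4a1* differed by -0.52 (SE 0.20, adjusted p of 0.12 by limma), and its highest aged repopulated library exceeded young control 1. *Klf6* differed by -0.08 (SE 0.06, adjusted p of 0.338 by limma), and its groups overlapped. *Dusp1* was not called without young control 2 or without young control 3, and without young control 1 *Fos* was called as well, at a log2 difference of -0.93. Of all 689 genes 2, 2 and 7 were called lower in these 3 fits.

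The levels of the genes kept nearly the same order in each group. *Nr4a1* was the highest of the 5 in every library, followed by *Junb* in every library, although the ranges of these neighbours overlapped over the mice of each group. In all 3 aged repopulated libraries *Dusp1* was above *Fos*, as in all 3 young control libraries, while in aged controls it was so in 1 of 3. The ranges of *Dusp1* and *Fos* overlapped in each group. *Klf6* was the lowest in all young and aged control libraries, without overlap with *Fos*. In the aged repopulated mice the 2 genes overlapped, at 9.74 ± 0.664 RPKM for *Klf6* and 10.7 ± 1.1 for *Fos* (SD, n = 3 each), with *Fos* higher in 2 of 3 libraries.

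Within a library, where the scaling between libraries cancels, the ratio of *Junb* to *Nr4a1* was between 0.768 and 0.954 over the 9 libraries. Over the same libraries *Junb* itself ranged 3.09-fold and *Nr4a1* 2.77-fold. The ratio of *Fos* to *Dusp1* was between 0.732 and 1.04. The ratio of *Fos* to *Klf6* changed far more, from 1.76 ± 0.479 in the young and 2.16 ± 0.529 in the aged group to 1.11 ± 0.165 after repopulation (SD, n = 3 each). Its young and repopulated ranges overlapped, at a lowest young ratio of 1.25 and a highest repopulated ratio of 1.27. The ratio of *Klf6* to *Dusp1* was between 0.712 and 0.9 in the aged repopulated mice and between 0.409 and 0.588 in the other 6 libraries, without overlap.

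The same mice were high or low for several of the genes at a time. Young control 1 was below its group mean for all 5 genes and young control 3 above it for all 5. Aged control 1 was below its group mean for *Fos*, *Junb*, *Nr4a1* and *Dusp1*, by 0.39, 0.48, 0.39 and 0.27 on the log2 scale, and aged repopulated 1 was below for the same 4 genes. The median gene of the table deviated from its group mean by between -0.017 and 0.016 in these 9 libraries. Across the deviations of the 9 libraries from their group means, Pearson's r was between 0.911 and 0.976 for the 6 pairs formed by *Fos*, *Junb*, *Nr4a1* and *Dusp1*. For *Klf6* with each of these 4 it was between 0.055 and 0.310. The points of a pair share a library and its scaling, and 9 deviations from 3 means are few.

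**Figure D4:**
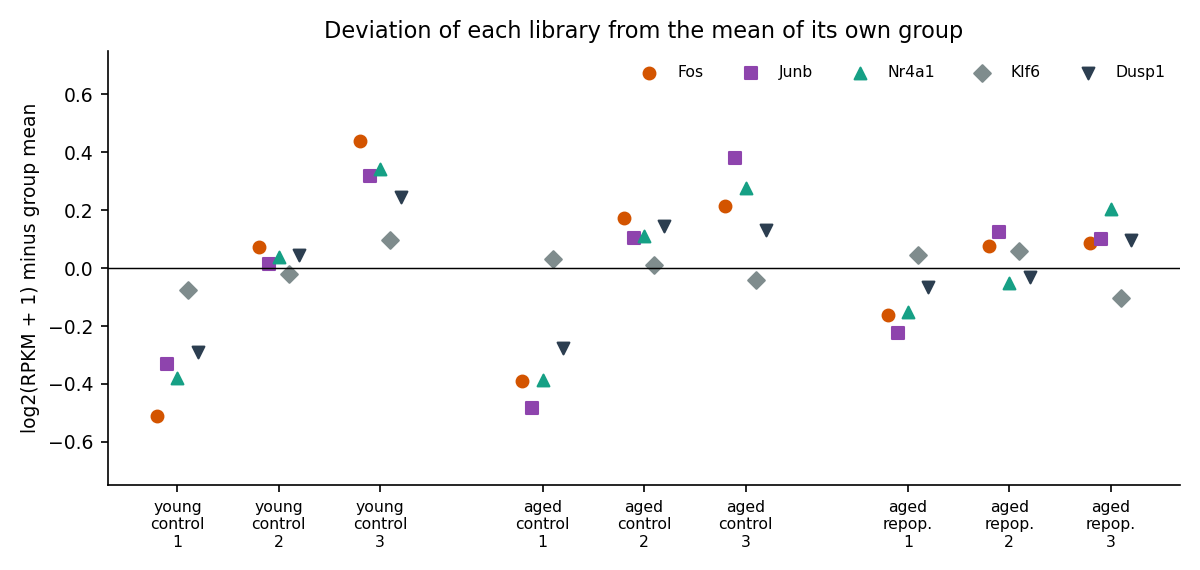
Deviation of each library from the mean of its own group in log2(RPKM + 1), with a symbol for each gene. *Fos*, *Junb*, *Nr4a1* and *Dusp1* lie together within each library, from -0.51 to 0.44, and *Klf6* stays between -0.10 and 0.10.

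*Fos*, *Junb*, *Nr4a1* and *Dusp1*, but not *Klf6*, were also among the most variable genes of the table. The residual SD within groups was 0.35 for *Fos* and 0.34 for *Junb* on the log2 scale, the largest 2 of the 689 genes, and 0.31 for *Nr4a1* in place 4. *Dusp1* was in place 17 with 0.21 and *Klf6* in place 174 with 0.08, against a median of 0.05. These places hold within the table, which the authors' model selected on the same libraries, and not among all expressed genes. The coefficient of variation of *Fos* was 33.3% in the young, 22.5% in the aged and 10.3% in the repopulated group, where the median over the table was 2.79%, 4.18% and 3.41%. *Dusp1* went from 19.1% and 16.3% to 6.46% in the same order. *Junb* (23.1%, 29.4% and 13.7%) and *Nr4a1* (25.2%, 23.1% and 13.6%) were likewise least variable in the aged repopulated mice. *Klf6* was not, with 6.83%, 2.79% and 6.82%. With 3 mice in a group, these differences in spread were not tested.

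**Figure D5:**
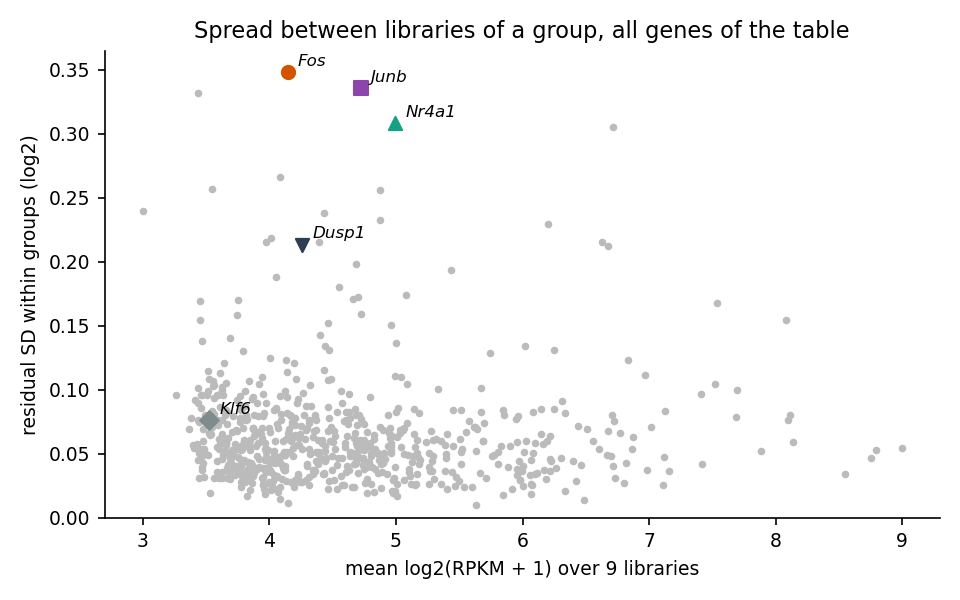
Residual SD within groups on the log2 scale against the mean log2(RPKM + 1) over 9 libraries for all 689 genes, with the 5 genes marked. *Fos*, *Junb* and *Nr4a1* lie at the top of the range, between 0.31 and 0.35, and *Klf6* at 0.08 lies among the bulk of the genes.

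Of 75 other immediate early genes listed, *Btg2*, *Tob1*, *Jmjd6* and *Sgk1* are among the 689 genes, and the remaining ones are not analysed here. With repopulation 2 of these 4 were called lower and 0 higher, beside 40 lower and 20 higher of all 689 genes. *Btg2* was 11.8 ± 2.44 RPKM in aged controls and 3.65 ± 0.23 in aged repopulated mice (SD, n = 3 each), a log2 difference of -1.44. Every gene of the table was above 10 RPKM in at least 1 library, and *Btg2* was so only in 2 aged control libraries, so its place in the table rests on the group where it is highest. *Fos*, *Junb*, *Nr4a1*, *Klf6* and *Dusp1* were above 10 RPKM in at least 2 libraries of each group. *Tob1*, a relative of *Btg2*, was lower by a log2 difference of -0.33. *Jmjd6*, which encodes a hydroxylase, and the kinase gene *Sgk1* were not called, at -0.12 and 0.13, and the median of the 4 was -0.22 against -0.05 over the table. With age 2 of the 4 were called higher, *Btg2* at 0.53 with overlapping groups and *Tob1* at 0.14, a share near the 46.3% of the table. Against young controls *Btg2* was called lower in the aged repopulated mice, at -0.91.

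Leaving the other members out, the genes with the pattern most like each of the 5, by Pearson's r of log2(RPKM + 1) over the 9 libraries, came from a small set. Pairs among *Fos*, *Junb*, *Nr4a1* and *Dusp1* themselves had r between 0.922 and 0.984. Among genes that are not members, *Btg2* was closest to *Fos* (r = 0.953), *Nr4a1* (0.948) and *Dusp1* (0.980), and to the mean z-score of the 5 genes (0.971). *Jmjd6* was closest to *Junb* (0.926), followed by *Tpm1* (0.924), which encodes a tropomyosin. *Jmjd6* was also in place 2 for *Nr4a1* (0.938) and place 3 for *Fos* (0.913). *Emc6*, a subunit of the membrane protein complex of the endoplasmic reticulum, was in place 2 for *Fos* (0.922), *Dusp1* (0.960) and the mean z-score (0.946), and in place 3 for *Junb* (0.922) and *Nr4a1* (0.930). In place 3 stood *Ppp1r1a* (0.899) for *Dusp1* and *Tef* (0.922) for the mean z-score. *Klf6* had other neighbours, *Pex5* (0.898), *Tef* (0.879) and *Serinc3* (0.869). The points share libraries and the 3 group means, and the table was selected on these groups. In the deviations from group means, r of *Jmjd6* was 0.991 with *Nr4a1*, 0.937 with *Junb* and 0.923 with *Fos*. That of *Btg2* was 0.909 with *Dusp1*, 0.890 with *Fos* and 0.890 with *Nr4a1*. For the other genes named here it was between 0.587 (*Serinc3* with *Klf6*) and 0.893 (*Tpm1* with *Junb*). All of these genes were picked by their r over the same 9 libraries, which favours a high r within groups too. The share of the table with such an r is not given here, so nothing is read from these values.

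Of 54 genes listed for the signalling that leads to these promoters, *Mapk14*, *Map2k2* and *Prkaca* are among the 689 genes. None of the 3 was called with repopulation (limma, 0 of 3), and their log2 differences were between -0.10 and 0.09. With age 1 was called higher and 1 lower, and against young controls 0 were called in the aged repopulated mice. Of all 689 genes, 20 were called higher and 40 lower with repopulation, 319 and 114 with age, and 29 and 5 against young controls. Of 20 glucocorticoid-responsive genes listed, 3 are among the 689 genes and 0 were called with repopulation, with log2 differences between -0.02 and 0.13. With age 1 of these 3 was called higher, and so was 1 in aged repopulated against young control brains, beside the same counts over all genes.

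Marker genes of cell types were looked up beside the lower levels of the 5 genes after repopulation. Of 14 microglial markers 8 are in the table, and their summed RPKM was between 155 and 161 in the young group, between 229.5 and 272.5 in the aged group and between 219.2 and 317.6 after repopulation. None of the 8 was called with repopulation, beside 60 of all 689 genes, and 7 were called higher with age, beside 46.3% of the table as fitted and 78 of the 689 genes with centring. Of 13 neuronal markers 2 are in the table, with a summed RPKM from 168.6 to 181.6, from 186.9 to 205.1 and from 177.6 to 180.9 in the same order, so that the aged controls were above both other groups without overlap. *Rbfox3*, which encodes the neuronal protein NeuN, was called lower with repopulation at a log2 difference of -0.17. The other neuronal marker was lower at -0.096 and was not called. The paper counted cells stained for the NeuN protein in cortex and saw no difference between any of its groups. Of 10 endothelial markers 3 are in the table, with a summed RPKM from 55.9 to 56.1, from 46.6 to 53.7 and from 41.9 to 51.5. *Slco1a4*, a transporter gene of brain endothelium, was called lower with repopulation at -0.38, while the other two were not called, 1 of them lower at -0.31 and 1 higher at 0.12. Of 9 oligodendrocyte markers only *Opalin* is in the table, and it was higher with repopulation at 0.373 but not called. Of 9 astrocyte and 5 blood markers none is in the table. With age, 2 neuronal markers were called higher, 1 endothelial marker higher and 1 lower, and *Opalin* lower at -0.535. Beside these, 319 of all 689 genes were called higher and 114 lower as fitted, and 78 and 215 with centring. The part of microglia, neurons, endothelium, oligodendrocytes and astrocytes in the result was not tested.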

How the data were processed

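RNA-seq libraries of 9 hemibrains, 3 from each of the 3 groups, were analysed. The authors called bases with CASAVA 1.8.2, aligned reads to mm10 with ELAND and computed RPKM per gene. Their deposited table holds the RPKM of 689 genes called by their own linear model after a filter at 10 RPKM, without pooling of replicates. Its other deposited columns are F and t scores and p-values of that model and were not used. No library column was left unmapped (0 columns), and 0 library pairs were identical. The counting step is not given in the sources used here.

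From the deposited RPKM, log2(RPKM + 1) of all 689 genes was fitted with limma 3.58.1 in R 4.3.3, with a mean for each group, 9 libraries in one fit and Benjamini-Hochberg adjustment, and called at 0.05. The study used untransformed RPKM, which was an alternative. The others were a pseudocount of 0.1 or 10, centring on the library median, quantile normalization, a loess correction for transcript length (686 genes with a length, 19 by an older symbol), a mean of at least 20 RPKM, only the groups compared, no variance moderation, a threshold of 0.025 and each library left out. The labels share no replicate number between groups, so no pairing was used. Nothing in the labels gives a batch. That each library is a separate mouse is taken from the study's methods.

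Promoters came from RefSeq (GRCm38.p6, all 5 genes matched) and gene positions from GENCODE M21. The members, gene lists and alternatives were chosen with earlier results of these data known. Named genes are the 5 members, every gene of the list of other immediate early genes in the table, the 3 genes most correlated with each member and with their mean z-score, and the genes of the signalling, glucocorticoid and marker lists called with repopulation. *Mapk14*, *Map2k2*, *Prkaca* and *Opalin* were named after their values were seen. Code was tested on simulated data. Python 3.11.15 with pandas 2.3.3 gave the summaries and matplotlib 3.10.9 the figures.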

Additional observations from a re-analysis of the deposited data

How the results depend on the processing

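None of the 5 genes reversed its direction in any of the 3 comparisons under any alternative. The number called lower in aged repopulated against aged control brains was 5 as reported, and 4 with a pseudocount of 10, with centring and with quantile normalization. It was 3 with the correction for transcript length, 2 in the fit of only the groups compared, 2 with a mean of at least 20 RPKM, where only *Junb* and *Nr4a1* were fitted, 1 on untransformed RPKM, 1 at a threshold of 0.025, and 0 without variance moderation, where all 5 had an adjusted p between 0.0664 and 0.0875. The number was between 1 and 4 with a library left out. Over all genes in these fits, 40 were called lower as reported, 9 of 686 with the length correction, 5 with only the groups compared, 21 of 341 with the filter, 15 on untransformed RPKM, 8 at the threshold of 0.025, 3 without moderation, between 2 and 97 with a library left out, and 38, 22 and 21 with the pseudocount of 10, centring and quantile normalization. For aged control against young control, the number of the 5 called higher was 0 as reported, 1 with only the groups compared (*Klf6*) and between 0 and 4 with a library left out, where 319, 304 and between 215 and 325 of all genes were called higher. For aged repopulated against young control, the number called lower was 1 as reported, 0 on untransformed RPKM, 0 with a mean of at least 20 RPKM, 0 without variance moderation, and between 0 and 2 with a library left out, where 5, 1, 3 of 341, 1 and between 2 and 12 of all genes were called lower. The causes of these changes were not tested, apart from the filter, which removed *Dusp1*. Read depth is unknown, so no counting error can be given, and 3 mice a group limit every comparison.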
